A study of Mus musculus with 6 samples.

Results

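Heparan sulfate and chondroitin sulfate enzymes are the glycosyltransferases, sulfotransferases, epimerases and sulfatases that build and trim the sugar chains of proteoglycans. The members were taken by gene symbol, as the Ext and Extl, Ndst, Hs2st, Hs3st, Hs6st, Chst, Chsy, Chpf, Csgalnact, Xylt, Sulf, B3gat, Glce, B4galt7, Ust, Dse and Dsel genes. No measured value enters this rule, but it was chosen with earlier results of these data known. They numbered 52 of 27179 genes in the table, and 40 of them were among the 14855 genes with enough counts to be tested. Expression was measured by bulk RNA sequencing of cancer-associated fibroblasts (CAFs) sorted from 3 mammary tumors of raGFP-Wnt1 mice, which were not treated. In these animals the MMTV promoter drives a Wnt1 transgene in the mammary epithelium, which came from an FVB/NJ strain. A Pdgfra allele carries an H2B-GFP reporter knocked in, which came from a C57BL/6 strain. The strains were crossed, so the mice are of mixed background, and they are heterozygous for the reporter. The GFP-positive cells of each tumor were separated into a CD34 negative and a CD34 positive fraction, so both groups carry the transgene and the reporter. That gave 3 libraries per group, numbered by tumor as negative libraries 1 to 3 and positive libraries 1 to 3. The labels give neither the age of the mice nor whether each tumor came from a separate animal, so p-values concern these tumors. Without a tumor term they measure the spread between the tumors. With the tumor as a block they measure how the difference between the fractions varies among the tumors.

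Both kinds of chain are attached to serines of a core protein through a shared linker, which begins with a xylose. The next sugar decides the chain: N-acetylglucosamine starts heparan sulfate, which the Ext proteins extend, and N-acetylgalactosamine starts chondroitin sulfate, which the Chsy and Chpf proteins extend. Epimerases and sulfotransferases then modify the chains, and the pattern of sulfate groups sets which growth factors, morphogens and chemokines bind. In connective tissue, fibroblasts are a main source of these chains, on syndecans and glypicans at the cell surface and on decorin, biglycan, versican and perlecan in the matrix.

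Library totals lay between 16238059 and 86609267 counts. Levels are given in CPM, counts scaled to a common library size. A gene with no count in a library may still be at up to 0.0351 to 0.186 CPM, the level of 3 counts, for counting error only. Negative library 3 stood apart, with the fewest genes detected (14314, against 16253 to 19220 in the others). For called members, results with the tumor as a block are therefore also given without tumor 3. Fits without tumor 3 are not given for the other genes of the pathway. Cd34 was at 42.0 to 102 CPM in the negative and 563 to 1600 CPM in the positive libraries, as labelled. The fibroblast markers Pdgfra, Dcn, Lum and Col1a2 together gave 22600 to 35100 CPM in the negative and 24500 to 28700 CPM in the positive libraries. Most of that sum is Col1a2, which was higher in the negative library of each tumor, whereas Pdgfra, Dcn and Lum were lower. Both pericyte markers moved with the sort without overlap. Rgs5 was at 3.72 to 10.7 CPM in the negative and 0.247 to 1.18 CPM in the positive libraries, and Mcam at 34.6 to 45.6 and 3.99 to 16.4 CPM. The summed muscle markers were at 2.97 to 13.3 and 1.52 to 1.86 CPM. Des was at 2.85 to 13.1 CPM in the negative and 0.743 to 1.39 CPM in the positive libraries. Acta1 was at 0.107 to 0.332 CPM in the negative and 0.129 to 1.11 CPM in the positive libraries. It was lower in the negative library of tumors 1 and 3 and higher in that of tumor 2. Myog was at most 0.0443 CPM. The summed epithelial markers were at 133, 107 and 39.7 CPM in the negative and 117, 72.4 and 10.9 CPM in the positive libraries, higher in the negative library of each tumor. The endothelial, leukocyte and Schwann sums reached at most 15.8 CPM and overlapped between the groups. The part of these cells in the results that follow was not tested, and in bulk libraries fewer cells of a type and less RNA per cell cannot be told apart.

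The question was whether the enzymes differ in expression between CD34 negative and CD34 positive CAFs. The study's methods name voom and limma and state no model terms. In limma-voom with no term for the tumor, 0 of 40 tested members had a Benjamini-Hochberg adjusted p under 0.05, beside 0.121% of all genes tested. At an unadjusted p under 0.05 there were 11 members, beside 14.3% of all genes. After adjustment this fit called 18 genes in all. The study reports more genes than that as higher in CD34 negative CAFs, so its own fit may differ. Without the tumor term, edgeR called 0 members, beside 9 of all 14855 genes tested. DESeq2 without that term called 5, namely Chpf, Extl3, Glce, Hs6st1 and Ust, beside 698 of the 14855 genes. Since both fractions came from the same tumor, the fit was also made with the tumor as a block. It called 10 of 40 members, beside 8.57% of all genes. In CD34 negative CAFs 7 were higher (background 4.32%), namely Chpf, Csgalnact1, Hs6st1, Hs6st2, Hs2st1, Extl3 and Chst11. The other 3 were lower (background 4.25%), namely Glce, Ust and Csgalnact2. The count of calls depended on the tool: with the same block edgeR called 1 member, Chpf (background 3.87%), and DESeq2 called 11, the 10 and Chpf2 (background 11.7%). The edgeR adjusted p of the other 9 lay between 0.0520 and 0.131.

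**Figure D1:**
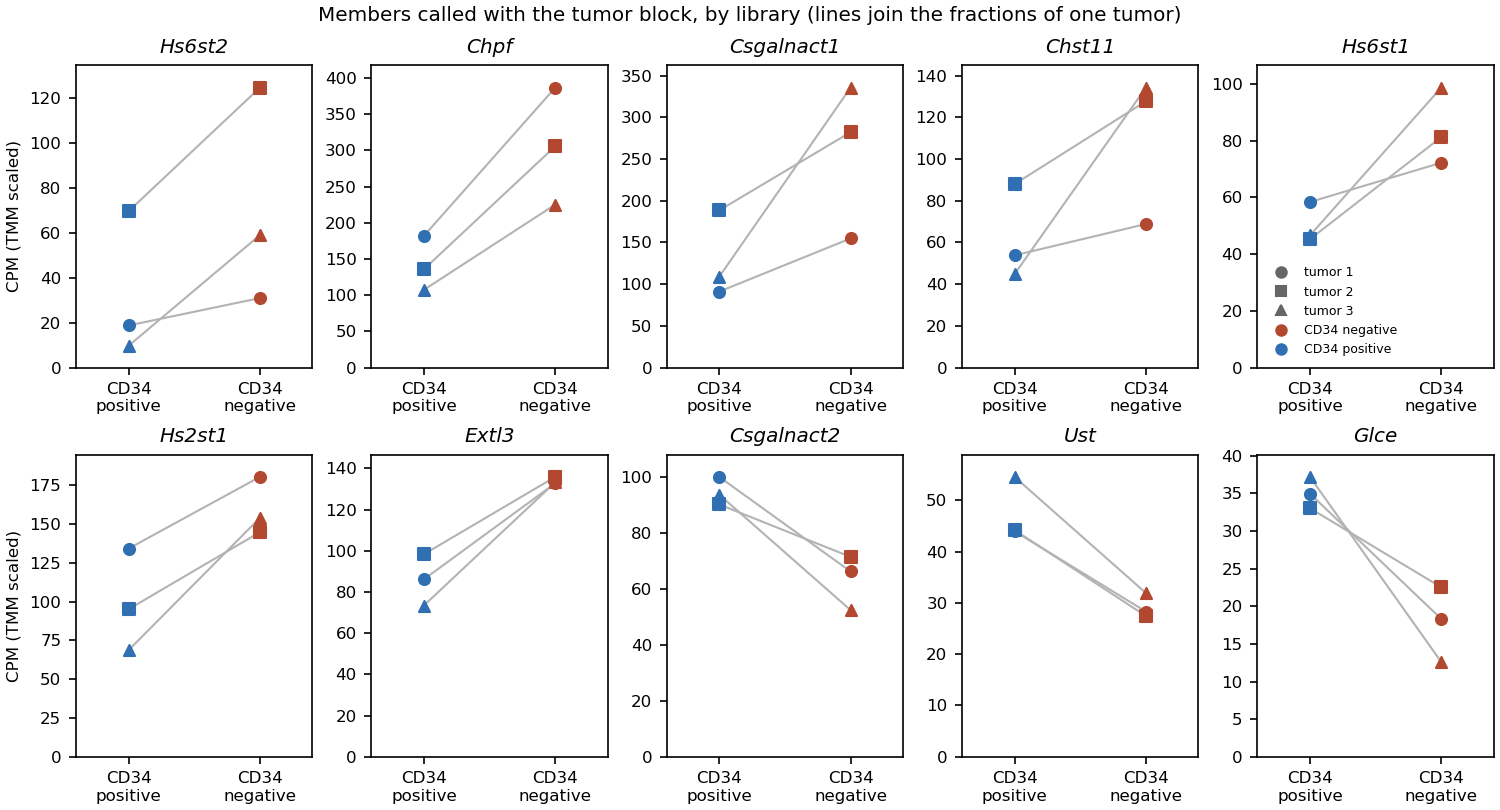
Level of the 10 members called with the tumor block, in CPM scaled by TMM, for each CD34 positive (blue) and CD34 negative (red) library; lines join the fractions of one tumor and every axis starts at 0. Each line rises toward the CD34 negative side for 7 genes and falls for Csgalnact2, Ust and Glce.

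The median log2 fold change of the tested members, CD34 negative minus CD34 positive, was 0.17 without the block, against -0.03 over all genes tested. The fold change was above 0 for 26 of the 40, beside 47.7% of all genes. The groups of libraries did not overlap for 9 of 40, beside 20.4% of all genes, with the negative libraries above for Chpf, Hs2st1, Hs6st1, Extl3 and Chst15 and below for Glce, Ust, Csgalnact2 and Dsel. The sign was the same in all 3 tumors for 21 of 40, beside 46.3% of all genes. The counts of members without overlap and of those with 1 sign stand close to the shares of all genes.

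**Figure D2:**
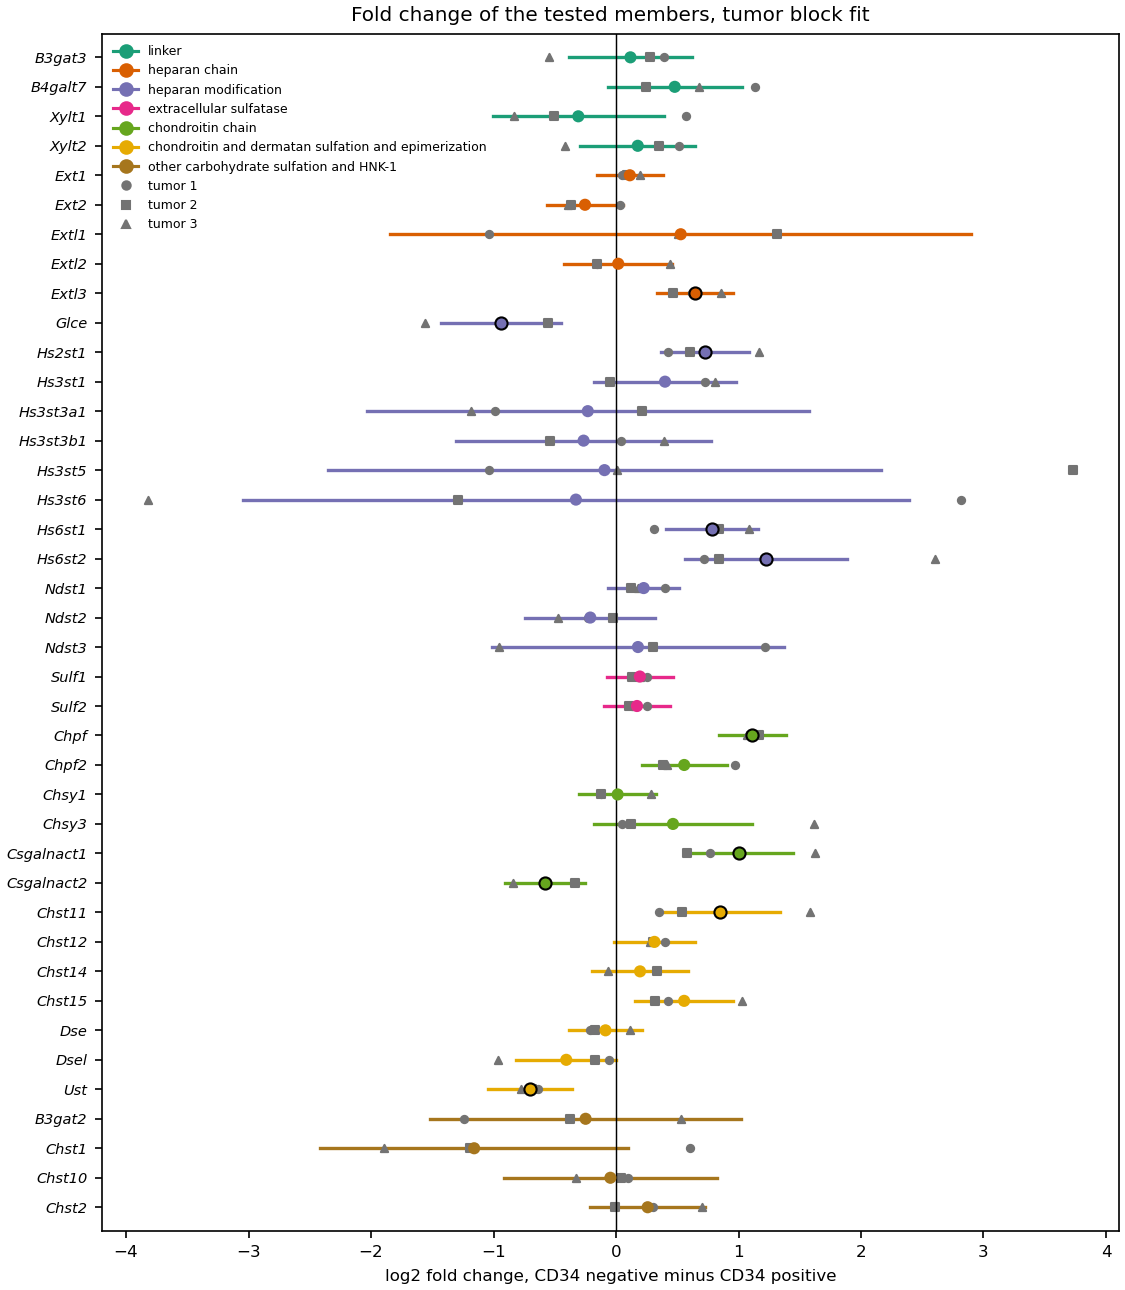
Log2 fold change (CD34 negative minus CD34 positive) of the 40 tested members in the limma-voom fit with the tumor block, colored by role. Large points are the fit, lines its 95% interval, black rims mark an adjusted p under 0.05, and grey symbols are the ratios within each tumor; the 10 rimmed genes include 4 of heparan modification and 3 of the chondroitin chain.

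To show the regulatory sequence in front of called members that moved in opposite directions, the bases upstream of the start are printed for Chpf and Hs6st1, which were higher, and for Csgalnact2 and Ust, which were lower. They are read 5′ to 3′ on the gene's strand, from RefSeq on GRCm38.p6, and only bases outside annotated exons are shown. Capitals mark matches on either strand to the motifs searched.
Chpf, chr1:75479472-75479531, minus strand: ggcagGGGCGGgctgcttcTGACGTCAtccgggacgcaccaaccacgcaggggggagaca
Hs6st1, chr1:36068150-36068399, plus strand: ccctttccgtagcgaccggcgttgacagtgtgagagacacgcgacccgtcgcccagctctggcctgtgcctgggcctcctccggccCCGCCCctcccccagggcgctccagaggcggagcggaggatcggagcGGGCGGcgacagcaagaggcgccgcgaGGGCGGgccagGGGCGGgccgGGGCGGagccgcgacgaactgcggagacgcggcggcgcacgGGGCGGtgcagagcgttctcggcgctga
Csgalnact2, chr6:118139141-118139390, minus strand: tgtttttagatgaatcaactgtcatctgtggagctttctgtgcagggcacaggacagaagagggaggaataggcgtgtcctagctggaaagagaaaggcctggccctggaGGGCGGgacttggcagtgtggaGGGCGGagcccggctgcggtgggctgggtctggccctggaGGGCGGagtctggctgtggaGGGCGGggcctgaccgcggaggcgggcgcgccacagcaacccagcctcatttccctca
Ust, chr10:8518826-8519075, minus strand: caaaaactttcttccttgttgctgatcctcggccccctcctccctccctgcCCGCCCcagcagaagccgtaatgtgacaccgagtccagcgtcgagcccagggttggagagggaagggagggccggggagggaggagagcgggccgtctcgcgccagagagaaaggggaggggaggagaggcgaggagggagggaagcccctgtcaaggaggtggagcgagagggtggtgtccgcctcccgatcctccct

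All 10 called members are protein-coding genes. On GRCm38.p6, Chpf (gene 74241) at 75474569 to 75479471 and Hs6st1 (gene 50785) at 36068400 to 36106446 of chromosome 1 share a chromosome. Csgalnact1 (gene 234356) lies at 68356781 to 68735621 of chromosome 8 and Csgalnact2 (gene 78752) at 118107452 to 118139140 of chromosome 6. Chst11 (gene 58250) lies at 82984440 to 83195904 and Ust (gene 338362) at 8204753 to 8518825 of chromosome 10. Extl3 (gene 54616) lies at 65052059 to 65149899 of chromosome 14, Glce (gene 93683) at 62057244 to 62122609 of chromosome 9, Hs2st1 (gene 23908) at 144429701 to 144570216 of chromosome 3 and Hs6st2 (gene 50786) at 51386637 to 51681705 of chromosome X.

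A promoter entry was found for 41 of 52 members and for 8 of the 10 called. The motifs were the GC box GGGCGG, the CCAAT box CCAAT, the cyclic AMP response element TGACGTCA, the TATA box TATAAA, the E-box CACGTG, the AP-1 site TGACTCA and the TEAD site GGAATG. The GC box was held in at least 1 window by 7 of those 8 members and by 28 of the 41. Of all 32851 windows of 250 bases in front of a gene, 32.7% held it. Some genes have more than 1 window, so a share of genes and a share of windows are unlike measures. In the printed stretches it was matched 6 times before Hs6st1, at 28 to 164 bases from the start, and 4 times before Csgalnact2, at 58 to 140 bases. Ust held 1 match, 199 bases from the start. Chpf held 1 GC box, 55 bases from the start, and the cyclic AMP response element 41 bases from the start. That element was held by 3 of the 41 members with an entry, called or not, and by 1.55% of windows. GC boxes thus stood before members of either direction. A match is a match of letters and says nothing about binding.

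The linker enzymes did not pass the test in either fit. Xylt1 and Xylt2, which add the first xylose, were both low. Xylt1 was at 14.6, 6.18 and 8.69 CPM in the negative and 9.84, 8.79 and 15.5 CPM in the positive libraries. Xylt2 was at 34.2, 28.3 and 20.2 CPM in the negative and 23.95, 22.2 and 27.0 CPM in the positive libraries. Their levels per kilobase stood in a ratio of 0.24 to 0.64 in the 6 libraries, so Xylt2 was the more abundant in each. B4galt7, which adds the first galactose, was at 12.6, 17.8 and 15.8 CPM in negative libraries 1, 2 and 3 and 5.69, 15.1 and 9.84 CPM in positive libraries 1, 2 and 3. It was the higher in each tumor, yet the groups overlapped, and its log2 fold change of 0.48 ± 0.24 (SE) with the block had a limma-voom adjusted p of 0.283. B3gat3, the glucuronyltransferase that completes the linker, had means of 19.1 and 17.6 CPM in the negative and positive groups.

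Among the enzymes of the heparan chain, Ext1 was the member with the highest level per kilobase, at a mean of 97.8 CPM per kilobase over the 6 libraries. Ext1 and Ext2 together form the polymerase that extends heparan sulfate. Ext1 stood at 276, 389 and 393 CPM in the negative and 266, 366 and 343 CPM in the positive libraries, and its 95% interval with the block, -0.16 to 0.38 on the log2 scale, held 0. Ext2 stood at 98.8, 99.5 and 82.8 CPM in the negative and 96.6, 129 and 109 CPM in the positive libraries, with an interval of -0.57 to 0.06. Neither polymerase gene passed the test, and their libraries overlapped between the groups.

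Extl3, which adds the N-acetylglucosamine that commits the linker to heparan sulfate, was at 133, 136 and 133 CPM in the negative libraries and 86.2, 98.4 and 73.5 CPM in the positive ones. The groups did not overlap, and the SD was 1.67 CPM over the negative and 12.4 CPM over the positive libraries (n = 3 each). The log2 fold change of Extl3 was 0.64 ± 0.14 (SE, limma-voom adjusted p = 0.0206 with the block and 0.148 without it), and 0.53 without tumor 3. Extl2, which can add a further N-acetylglucosamine to the linker, had means of 22.9 and 22.3 CPM. Extl1 was near the limit of detection, at 0.282 to 0.819 CPM.

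Heparan modification held 16 members, of which 12 were tested; with the block 3 were higher in CD34 negative CAFs and 1 was lower. Those that were higher add sulfate to the chain after the Ndst enzymes have acted. Hs2st1, which adds 2-O-sulfate to the uronic acid, was at 180, 145 and 154 CPM in the negative and 134, 95.04 and 68.7 CPM in the positive libraries. Its groups did not overlap, and its log2 fold change was 0.73 ± 0.16 (SE, adjusted p = 0.0231 in limma-voom with the block, 0.231 without it). Without tumor 3 it was 0.51.

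Hs6st1 and Hs6st2 place sulfate at the 6-O position. Hs6st1 was at 72.2, 81.3 and 98.7 CPM in the negative and 58.4, 45.3 and 46.6 CPM in the positive libraries, with no overlap. For Hs6st1 the log2 fold change was 0.78 ± 0.17 (SE, limma-voom adjusted p = 0.0210 with the block, 0.140 without it). It was 0.60 without tumor 3 and, with an adjusted p of 0.0855, 0.72 without tumor 2, where its call was lost. Its exons share 8.07% of their bases with an antisense gene, Gm37335, and the library kit does not mark strand. Hs6st2 varied widely among tumors, at 30.9, 124 and 58.8 CPM in the negative and 18.7, 69.5 and 9.67 CPM in the positive libraries. Tumor 2 was the highest in both fractions, so the groups overlapped although each negative library exceeded its partner. Its log2 fold change was 1.23 ± 0.29 with the block (SE, limma-voom adjusted p = 0.0337) and 1.03 ± 0.74 without it (adjusted p = 0.567). With the block it was 0.80 without tumor 3 and 1.82 without tumor 2. Without the block it ran from 0.43 without positive library 3 to 2.28 without positive library 2, so its size rested on single libraries.

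Glce, the epimerase that turns glucuronic into iduronic acid in heparan sulfate, moved the other way. It was at 18.3, 22.5 and 12.6 CPM in the negative and 35.0, 33.0 and 37.2 CPM in the positive libraries, with no overlap. The log2 fold change of Glce was -0.94 ± 0.22 (SE, adjusted p = 0.0294 in limma-voom with the block, 0.131 without it). It was -0.72 without tumor 3 and -0.91 without tumor 1, where the adjusted p was 0.0657.

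Ndst1 and Ndst2, which replace acetyl by sulfate on glucosamine and open the way to later steps, did not pass. Ndst1 was at 135, 102 and 121 CPM in the negative and 102, 93.6 and 107 CPM in the positive libraries. Ndst2 was at 11.6, 11.1 and 10.1 CPM in the negative and 13.6, 11.3 and 14.0 CPM in the positive libraries. The 3-O-sulfotransferases, which complete rare binding sites such as that for antithrombin, were low. Hs3st1 led them at 13.6, 11.1 and 22.6 CPM in the negative and 8.17, 11.5 and 12.9 CPM in the positive libraries. Hs3st3b1 was at 2.51, 2.88 and 2.09 CPM in the negative and 2.41, 4.202 and 1.59 CPM in the positive libraries. Hs3st3a1 was lower still, at 0.570, 1.395 and 0.165 CPM in the negative and 1.11, 1.21 and 0.388 CPM in the positive libraries. The groups overlapped for each of them. Hs3st3a1 has exons that overlap another gene by 32.9% of their bases, and how reads matching both it and Hs3st3b1 were counted is not stated. Hs3st5 and Hs3st6 rested on few counts that differed among libraries of a group, 1 to 58 for Hs3st5 and 0 to 99 for Hs3st6.

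Sulf1 and Sulf2, which remove 6-O-sulfate from finished chains outside the cell, were among the most abundant members and did not pass. Sulf1 was at 524, 441 and 552 CPM in the negative and 441, 402 and 481 CPM in the positive libraries. Sulf2 was at 237, 141 and 212 CPM in the negative and 198, 132 and 190 CPM in the positive libraries. Each was slightly higher in the negative library of every tumor, but the groups overlapped. The 95% intervals with the block were -0.07 to 0.46 for Sulf1 and -0.10 to 0.44 for Sulf2 on the log2 scale. Per kilobase, Sulf1 exceeded Sulf2 by 1.88 to 2.66 times in the 6 libraries.

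**Figure D3:**
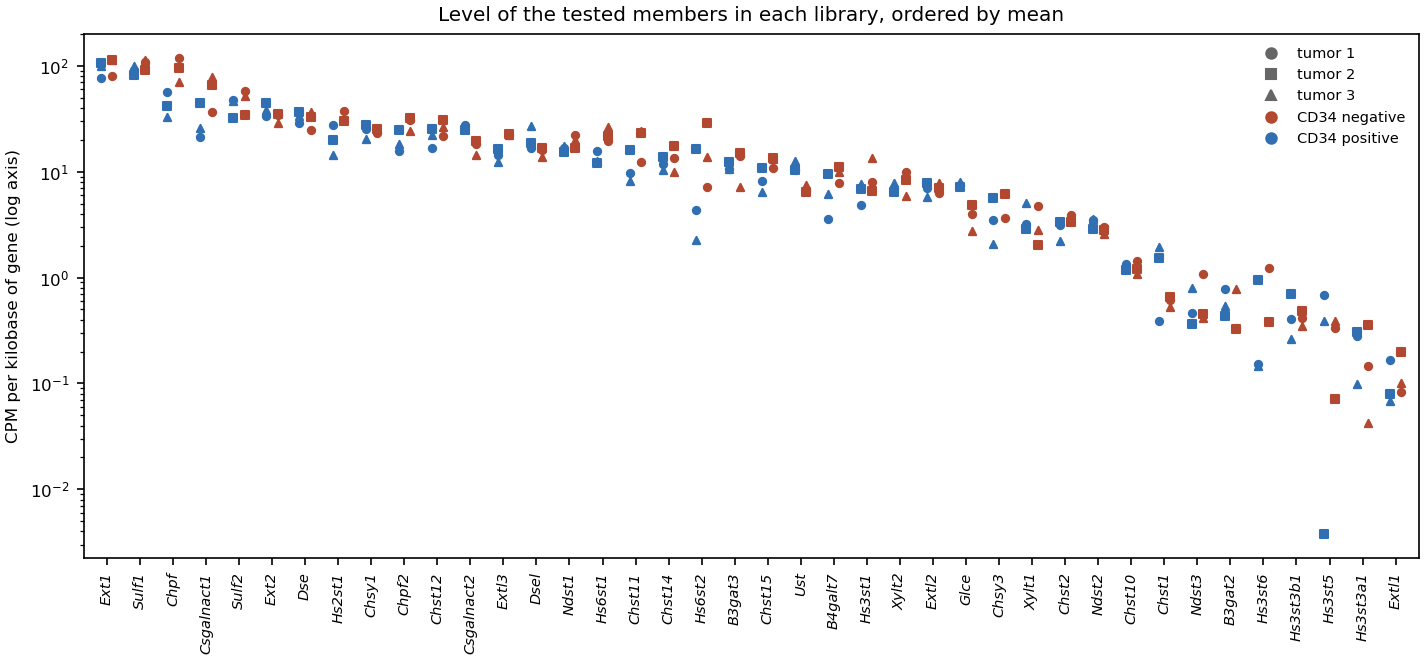
Level of each tested member in each library, in CPM per kilobase of gene on a log axis, ordered by the mean of the 6 libraries; red points are CD34 negative, blue points CD34 positive, and values of 0 are not drawn. Ext1, Sulf1, Chpf, Csgalnact1, Sulf2 and Ext2 stand highest, at means of 35.7 to 97.8 CPM per kilobase.

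In the chondroitin chain, 2 of the 6 members were higher and 1 was lower with the block. Chpf, a partner of the chondroitin synthases in chain extension, was at 387, 306 and 225 CPM in the negative and 182, 136 and 107 CPM in the positive libraries. No negative library reached down to the positive ones. The log2 fold change was 1.11 ± 0.12 (SE, limma-voom adjusted p = 0.00131 with the block and 0.129 without it). It was 1.07 to 1.13 when any 1 tumor was left out, and with the block it was called by edgeR too (adjusted p = 0.0130).

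Csgalnact1 and Csgalnact2 both add the N-acetylgalactosamine that commits the linker to chondroitin sulfate, and they moved in opposite directions. Csgalnact1 was at 155, 282 and 336 CPM in the negative and 91.0, 188 and 109 CPM in the positive libraries. Each negative library was above its partner, but negative library 1 was below positive library 2. The log2 fold change of Csgalnact1 was 1.00 ± 0.20 (SE, limma-voom adjusted p = 0.0147 with the block, 0.247 without it), and 0.65 without tumor 3. Csgalnact2 was at 66.3, 71.6 and 52.5 CPM in the negative and 100.2, 90.3 and 93.8 CPM in the positive libraries, with no overlap. Its log2 fold change was -0.58 ± 0.15 (SE, limma-voom adjusted p = 0.0401 with the block, 0.192 without it). Its call was the least stable, with an adjusted p of 0.109, 0.0519 and 0.0515 when tumor 1, 2 or 3 was left out.

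The other extending enzymes did not pass. Chsy1 was at 96.5, 106 and 103 CPM in the negative and 105, 115 and 84.4 CPM in the positive libraries, and Chsy3 at 14.2, 23.9 and 24.5 CPM and 13.7, 22.0 and 8.01 CPM. Chpf2, given because DESeq2 called it with the block, was at 114, 119 and 90.4 CPM in the negative and 58.3, 91.1 and 67.9 CPM in the positive libraries (log2 fold change 0.56 ± 0.15, SE, limma-voom adjusted p = 0.0584). Positive library 2 reached just above negative library 3. Of its exon bases, 44.1% are shared with Smarcd3 on the opposite strand, so reads of the pair cannot be told apart there; Smarcd3 had 3629 counts in all and Chpf2 25714.

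Of the enzymes that sulfate or epimerize chondroitin and dermatan sulfate, 7 of 10 were tested, and with the block 1 was higher and 1 lower. Chst11, which with Chst12 places 4-O-sulfate on chondroitin, was at 68.8, 128 and 134 CPM in the negative and 53.8, 87.9 and 44.8 CPM in the positive libraries. The groups overlapped, since positive library 2 exceeded negative library 1. Its log2 fold change was 0.85 ± 0.22 (SE, limma-voom adjusted p = 0.0446 with the block, 0.336 without it), and 0.45 without tumor 3 (adjusted p = 0.0631). Chst12 was at 39.1, 55.2 and 47.6 CPM in the negative and 29.7, 44.8 and 39.3 CPM in the positive libraries and did not pass.

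Ust, which sulfates the uronic acid of chondroitin and dermatan sulfate, was at 28.3, 27.4 and 31.9 CPM in the negative and 44.0, 44.2 and 54.5 CPM in the positive libraries, with no overlap. Its log2 fold change was -0.70 ± 0.15 (SE, limma-voom adjusted p = 0.0214 with the block, 0.144 without it). The fold change was -0.68 without tumor 3, and the call was lost without tumor 1 (adjusted p = 0.0566) or tumor 2 (adjusted p = 0.129).

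Dse and Dsel, the epimerases that turn chondroitin into dermatan sulfate, did not pass. Dse was at 105, 138 and 155 CPM in the negative and 121, 155 and 143 CPM in the positive libraries. Dsel was at 93.2, 95.8 and 79.0 CPM in the negative and 97.1, 108 and 154 CPM in the positive libraries, without overlap but with a limma-voom adjusted p of 0.216 with the block. Chst14, the 4-O-sulfotransferase of dermatan, had means of 28.4 and 25.1 CPM. Chst15, which adds a further sulfate to sulfated N-acetylgalactosamine and is given because its groups did not overlap, was at 46.5, 57.9 and 56.4 CPM in the negative and 34.7, 46.4 and 27.6 CPM in the positive libraries (adjusted p = 0.0955 in limma-voom with the block).

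The chondroitin 6-O-sulfotransferases were close to the limit of detection. Chst3 had 43, 10 and 0 counts in the negative and 16, 13 and 0 counts in the positive libraries. Chst7 had 7, 6 and 0 counts in the negative and 3, 31 and 91 counts in the positive libraries, so positive library 3 alone was above 1 CPM, at 3.21 CPM. Neither was tested. Of the 9 enzymes for keratan sulfate, other glycans and the HNK-1 epitope, 4 were tested and did not pass, and Chst2 was the highest, with means of 22.7 and 18.2 CPM. In all, 12 members were not tested. Hs3st2 and Chst4 had 0 counts in every library, and the highest count in a library was 1 for B3gat1 and Ndst4, 2 for Hs6st3 and Hs3st4, 4 for Chst5, 5 for Chst9, 12 for Chst13 and 15 for Chst8.

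Ratios of enzymes that share a step were compared within each library, per kilobase, which does not depend on library size. Of 12 pairs set out, 10 had at least 10 counts in every library. With 3 libraries against 3, the exact permutation test cannot give a two-sided p below 0.1. Csgalnact1 over Csgalnact2 was 2.01, 3.40 and 5.51 in the negative and 0.783, 1.80 and 1.00 in the positive libraries. The groups did not overlap, the ratio was higher in 3 of 3 tumors, and the mean log2 ratio differed by 1.58 (exact permutation p = 0.1, 0.5 after adjustment over the 10 pairs). Ndst1 over Ndst2 was 7.46, 5.90 and 7.71 in the negative and 4.81, 5.31 and 4.91 in the positive libraries, which did not overlap either (difference in mean log2 ratio 0.48, exact permutation p = 0.1, adjusted p = 0.5). For the other pairs the groups overlapped and the exact permutation p lay between 0.2 and 0.8. This permutation does not use the pairing by tumor. Within tumors, Hs3st1 over Hs3st3b1 and Ext1 over Ext2 were also higher in the negative library of 3 of 3 tumors, and Chsy1 over Chsy3 was higher in 0 of 3. Sulf1 over Sulf2 differed by 0.02 in mean log2 ratio. Hs6st1 over Hs6st2 ran from 0.753 to 2.70 in the negative and 0.751 to 5.55 in the positive libraries, and tumor 2 was the one in which Hs6st2 exceeded Hs6st1, in both fractions.

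**Figure D4:**
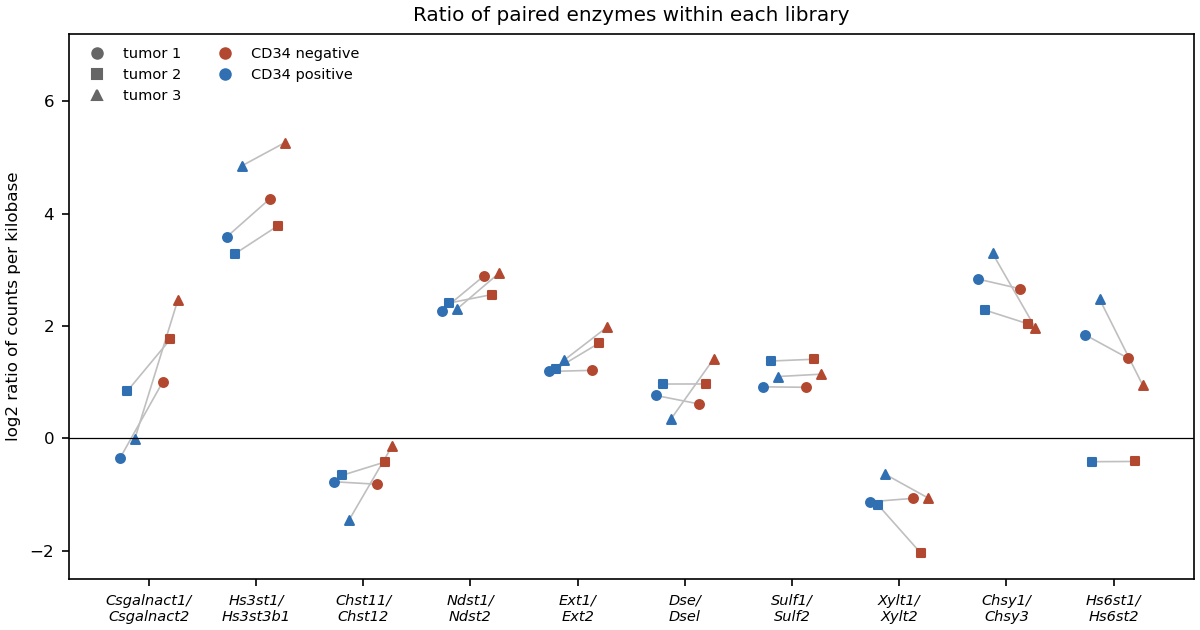
Log2 ratio of counts per kilobase of 10 pairs of enzymes in each CD34 positive (blue) and CD34 negative (red) library; lines join the fractions of one tumor. The groups do not overlap for Csgalnact1 over Csgalnact2, where the mean differs by 1.58, and for Ndst1 over Ndst2, where it differs by 0.48.

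Summed per kilobase by role, the chondroitin chain enzymes stood at 232, 244 and 218 CPM per kilobase in the negative and 149, 169 and 125 CPM per kilobase in the positive libraries. The heparan modification enzymes stood at 105, 114 and 112 in the negative and 82.6, 82.7 and 67.7 in the positive libraries, on the same scale. Neither pair of groups overlapped, whereas those of the other role groups did. Chpf and Csgalnact1 are the most abundant of the chondroitin chain, with means of 69.2 and 45.5 CPM per kilobase over the 6 libraries, and weigh most in its sum. In heparan modification, the called Hs2st1, Hs6st1 and Hs6st2 had means of 33.2, 22.6 and 16.7 CPM per kilobase in the negative libraries. In the positive libraries these means were 20.6, 13.5 and 7.61. Glce, the 1 called lower, had means of 3.85 and 7.58. Both sums thus include members called above and are no separate result. All members together made up 3121 to 3325 CPM in the negative and 2531 to 2775 CPM in the positive libraries. This total also includes the called members, was not set beside sums of other genes and is no separate result.

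**Figure D5:**
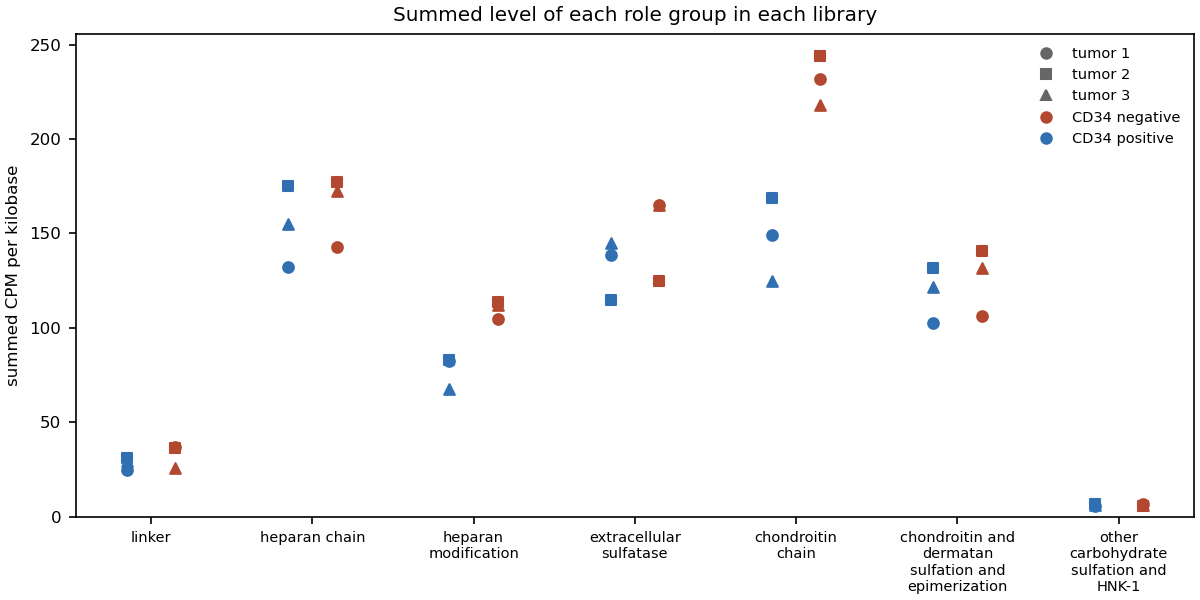
Summed level of the members of each role group in each library, in CPM per kilobase of gene, with CD34 negative libraries in red and CD34 positive in blue. The red points lie above the blue for the chondroitin chain (218 to 244 against 125 to 169) and for heparan modification (105 to 114 against 67.7 to 82.7).

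The other lists place the enzymes in their pathway, and no gene of them was called without the block. Of the 15 tested genes that make or carry the sugar and sulfate donors or act on the linker, 0 were higher and 2 lower in CD34 negative CAFs with the block, beside 4.32% and 4.25% of all genes. Ugdh, which makes UDP-glucuronic acid for both chains, was at 240, 260 and 142 CPM in the negative and 545, 633 and 730 CPM in the positive libraries (log2 fold change -1.61 ± 0.21, SE, limma-voom adjusted p = 0.00279 with the block). Ugp2, which makes UDP-glucose one step before, was at 73.5, 102 and 86.4 CPM in the negative and 177, 192 and 358 CPM in the positive libraries (log2 fold change -1.41 ± 0.20, SE, limma-voom adjusted p = 0.00360 with the block). For both genes no negative library reached the positive ones. Within tumors 1, 2 and 3 the log2 ratio was -1.18, -1.29 and -2.36 for Ugdh and -1.27, -0.92 and -2.05 for Ugp2. Tumor 3 thus had the largest ratio in size for both, and fits without it are not given for genes of these lists. Papss1 and Papss2, which make the sulfate donor, had log2 fold changes of 0.09 and -0.03 and adjusted p-values of 0.7497 and 0.937 in the same fit.

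Of 18 genes of chain breakdown, 1 was higher and 1 lower with the block, a total near the 8.57% of all genes called in that fit. Hpse, the heparanase that cuts heparan sulfate, was at 3.65, 20.1 and 11.3 CPM in the negative and 11.3, 44.1 and 60.1 CPM in the positive libraries (log2 fold change -1.66 ± 0.27, SE, limma-voom adjusted p = 0.00717 with the block). Hexa, a lysosomal hexosaminidase subunit, was higher, with a log2 fold change of 0.56 ± 0.13 (SE, limma-voom adjusted p = 0.0266 with the block).

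Of 21 tested core proteins, 8 were higher and 6 lower with the block, beside the same 4.32% and 4.25% of all genes. The higher ones were Sdc1, Sdc3, Gpc1, Hspg2, Agrn, Bgn, Cspg4 and Srgn, and the lower ones Sdc2, Gpc3, Vcan, Dcn, Cd44 and Tgfbr3. Cspg4, which pericytes also express, was at 84.5 to 129 CPM in the negative and 12.9 to 44.0 CPM in the positive libraries. Either direction held carriers of both heparan sulfate, such as Agrn and Gpc3, and chondroitin or dermatan sulfate, such as Bgn and Dcn.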

How the data were processed

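RNA of 6 sorted fractions was made into Illumina TruSeq RNA v2 libraries, a kit that does not mark strand. The authors aligned the reads to GRCm38 with Rsubread and deposited raw counts per NCBI gene, made with featureCounts per the labels. The strand setting and the treatment of reads with several matches are not given in the sources used here. Groups and tumor numbers came from the sample titles.

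Genes were filtered with filterByExpr (minimum count 10), scaled by TMM and tested with limma-voom (two-sided, Benjamini-Hochberg adjusted p under 0.05), first with no tumor term, since the study's methods name limma-voom without stating model terms, then with the tumor as a block. Libraries are paired by tumor, from which both fractions were sorted, and their deviations from group means correlated across genes at 0.396, 0.399 and 0.221. CPM are scaled by TMM, and levels per kilobase use the deposited gene length. Tests were run in R 4.3.3 with limma 3.58.1, edgeR 4.0.16 and DESeq2 1.42.0 and checked on simulated data. Alternatives were the normalization, filter, annotation, tool and left-out libraries or tumors.

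Values in every library are given for members called in either fit, the 6 highest per kilobase, non-overlapping members with a fold change above 1 on the log2 scale, and members of the enzyme pairs; B4galt7, Chpf2, Chst15, Chst3 and Chst7 were added after their values were seen. Members, lists and the rule were chosen with earlier results of these data known. Promoter windows and exon overlaps came from RefSeq GRCm38.p6 and GENCODE annotation of the same build.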

Additional observations from a re-analysis of the deposited data

How the results depend on the processing

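Without the tumor term, 0 members were called under the other normalization, no filter, symbols only, edgeR and when any library or tumor was left out (0 to 0), and 5 were called with DESeq2. That DESeq2 fit called 698 of 14855 genes in all. Adding the tumor as a replicate block to limma-voom gave 10 members, beside 8.57% of all genes. With the block, edgeR called 1 member and DESeq2 11, beside 3.87% and 11.7% of all genes. When a tumor was left out of the limma-voom fit with the block, the members called changed. Csgalnact2, Glce and Ust were lost without tumor 1, Csgalnact2, Hs6st1 and Ust without tumor 2, and Csgalnact2 and Chst11 without tumor 3, where Chpf2 was gained. The cause was not tested. The 10 called members kept their direction under the alternatives run, and so did the difference in the ratio of 9 of the 10 enzyme pairs. The exception was Sulf1 over Sulf2, at -0.11 to 0.14 on the log2 scale. Leaving out libraries for the ratios was chosen after seeing the data.

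Directions turned among members that did not pass. Without the block, the log2 fold change of Chsy1 was -0.0081 with DESeq2. When libraries or tumors were left out, it ranged from -0.13 to 0.11 for Chsy1, -0.072 to 1.01 for Chsy3, -0.53 to 0.17 for Xylt1, -0.015 to 0.29 for Ext1, -0.61 to 0.41 for Hs3st3b1, -0.026 to 0.37 for Sulf2 and -0.20 to 0.064 for Dse. When a tumor was left out with the block, it ranged from -1.05 to 0.054 for Hs3st3a1, -0.38 to 0.21 for Hs3st3b1 and -0.14 to 0.079 for Chsy1. With 3 tumors, intervals of low members are wide: 19 of the 30 tested members not called with the block had a 95% interval within 1 of 0 on the log2 scale.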
